A study of Mus musculus with 8 samples.

Results

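AU-rich elements (AREs) are short A- and U-rich stretches in the 3′UTRs of mRNAs, and the genes described here encode the proteins best known for binding them. The 10 genes were chosen by name from the 46078 genes of the count table. They comprise the TTP family with 4 genes (Zfp36, Zfp36l1, Zfp36l2 and Zfp36l3), the Hu/ELAV family with Elavl1 and Elavl2, and 4 other ARE binders (Hnrnpd, Khsrp, Tia1 and Tial1). The choice was made by name and not by a measured value, though earlier results of these data were known.

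Proteins of the TTP family carry a tandem pair of CCCH zinc fingers that bind AREs, and they recruit the CCR4–NOT deadenylase, which shortens the poly(A) tail and starts mRNA decay. Cnot7 and Cnot8 are alternative catalytic subunits of that complex, so the proteins described here select mRNAs on which the complex acts or compete for the same sites. Elavl1 (HuR) stabilizes many ARE mRNAs, Khsrp (KSRP) promotes their decay, Hnrnpd (AUF1) can do either depending on its isoform and target, and Tia1 and Tial1 (TIAR) repress their translation and form stress granules. AREs also occur in the mRNAs of the TTP family itself. Zfp36l2 is known to be needed for female fertility in mice, Elavl2 is abundant in mouse oocytes, and Zfp36l3 is a rodent gene known from the placenta.

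RNA was measured by RNA-seq in fully grown germinal vesicle (GV) stage oocytes, in 4 libraries of CNOT7&8 KO oocytes and 4 libraries of oocytes from Zp3-Cre controls, with 100 oocytes in each library. The KO oocytes lacked Cnot7 and Cnot8 through floxed alleles deleted by Zp3-Cre, a transgene whose Zp3 promoter is active in growing oocytes and not in the somatic cells around them, and the controls carried the same Cre. Per the methods of the study, females were 4 weeks old, on a C57BL/6J background and primed with PMSG, and cumulus cells were removed with hyaluronidase. The labels do not say which animals a library came from, so the p-values measure the spread between these libraries.

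Total counts were 14943671 to 44092144 in control and 8639444 to 26784110 in KO libraries. Cnot8 fell to 21.0% of control (167.8 ± 20.01 CPM in control, 35.2 ± 1.40 in KO, SD, n = 4), whereas Cnot7, counted over the whole gene, was at 77.1% (933.2 ± 77.3 CPM and 719.2 ± 70.8), and counts per gene do not show which exons were deleted. CPM here is the count scaled to the library total after TMM normalization. The oocyte markers were present in every library, with a sum of 16247 to 17651 CPM in control and 13548 to 15876 in KO for 10 genes. By the test and thresholds given with the members, 0 of them were DEGs higher in KO, against 23.8% of all genes tested. Lower in KO was 1 of them, Mos, against 6.56% of all genes. Without the fold threshold 5 were lower, against 24.1% of all genes, and 1 was higher, against 31.2%. Their median log2 fold change was -0.29. Most of these markers averaged 100 CPM or more, and of all genes at that level 55.2% were lower without the fold threshold. A total of 3 counts, taken as the detection floor, made 0.0802 CPM in the deepest and 0.326 CPM in the shallowest library, KO replicate 1. Intervals and floors from counts cover counting error only, since PCR copies are not independent molecules. In libraries of pooled oocytes, fewer cells of a type and less RNA per cell cannot be told apart.

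The ARE sites in the 3′UTRs of the members are shown first because the members bind such sites and several carry them. Sequences were read from the longest annotated 3′UTR of each gene (GENCODE vM21, GRCm38), on the transcribed strand from 5′ to 3′ with T for U. Capitals mark the nonamer TTATTTATT where there is one, and otherwise the heptamer TATTTAT.
Zfp36 nonamer, chr7:28376951-28376979, minus strand: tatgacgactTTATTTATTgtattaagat
Zfp36l1 nonamer, chr12:80108167-80108195, minus strand: aactgttggaTTATTTATTttagaaattc
Zfp36l2 nonamer, chr17:84184914-84184942, minus strand: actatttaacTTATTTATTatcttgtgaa
Elavl1 nonamer (the first), chr8:4285788-4285816, minus strand: gtcatgaaaaTTATTTATTtatttattta
Elavl2 heptamer (the first), chr4:91252699-91252727, minus strand: gtttacattttTATTTATgaagttacaaa
Tia1 heptamer, chr6:86430467-86430495, plus strand: cagatacaatgTATTTATttaaaagattc
Tial1 heptamer, chr7:128442423-128442451, minus strand: gaaaatgaaaaTATTTATtttaaaaattg

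Zfp36, Zfp36l1 and Zfp36l2 each held 1 nonamer, in 3′UTRs of 774, 1835 and 1822 bases, at positions 589, 1404 and 821 where position 1 follows the stop codon directly. In Elavl1 the 3′UTR (4218 bases) held 8 nonamers, which start between positions 3794 and 3840 and mostly overlap each other. Elavl2 held no nonamer but 3 heptamers in 2477 bases, Tia1 and Tial1 held 1 heptamer each, and Hnrnpd (5429 bases) and Khsrp (1642 bases) held neither. The annotated 3′UTR of Zfp36l3 was 20 bases long and held none of these motifs. For comparison, the nonamer was found in 7.92% of the 15132 tested genes with a 3′UTR of at least 50 bases, the heptamer in 29.6% and the pentamer ATTTA in 69.7%. Only the transcribed strand was searched, each nonamer contains a heptamer and each heptamer a pentamer, and a match is a description of the letters and not evidence of binding.

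Zfp36l1 and Zfp36l2 were higher in CNOT7&8 KO oocytes, and none of the 9 members tested was lower by 2-fold or more. Of the 10 members, 9 passed the filter on low counts (at least 0.2 CPM in 2 or more libraries), and Zfp36l3 did not. By edgeR's quasi-likelihood test, adjusted by Benjamini-Hochberg over all 19241 genes tested, 2 members were DEGs (adjusted p of at most 0.05 and at least 2-fold) with higher levels in KO, against 23.8% of all genes tested, and 0 were DEGs with lower levels, against 6.56%. Without the fold threshold, 2 members were higher (31.2% of all genes) and 1, Tial1, was lower (24.1% of all genes). The median log2 fold change of the 9 members was -0.10, and that of all genes tested was 0.12. The groups did not overlap for 3 members (Zfp36l1, Zfp36l2 and Tial1), and they did not overlap for 48.4% of all genes. These counts are close to the shares of all genes, so the members as a list are not set apart by them.

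**Figure D1:**
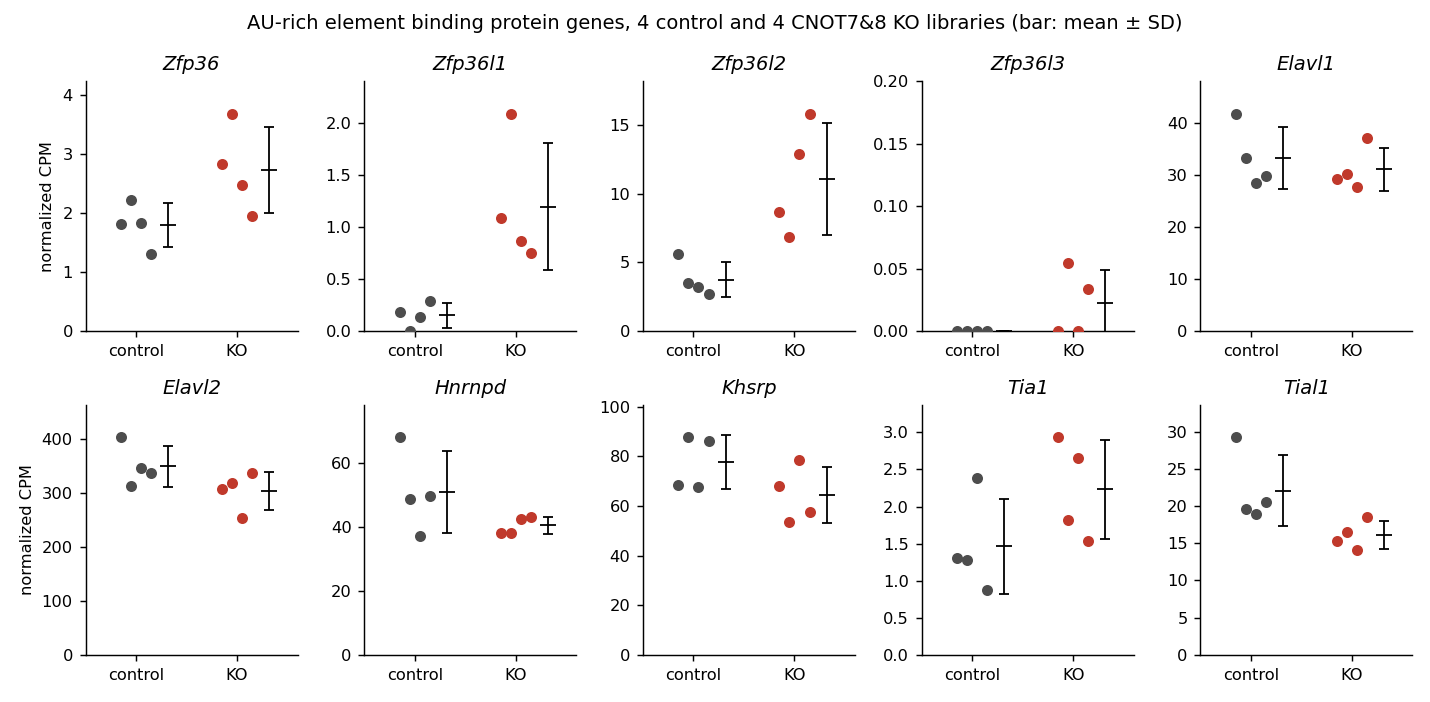
Normalized CPM (y axis, from 0, on a scale of its own in each panel) of the 10 members in the 4 control and 4 CNOT7&8 KO libraries; points are libraries in replicate order and bars are mean ± SD. All KO points of Zfp36l1 and Zfp36l2 lie above all control points, all KO points of Tial1 lie below, and the groups overlap in the other 7 panels.

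Zfp36l2, a TTP family member that recruits the deadenylase to ARE mRNAs, was the most abundant of its family and rose in KO oocytes. It is encoded on chr17:84183931-84187947 on the minus strand. Its level was 5.61, 3.50, 3.20 and 2.70 CPM in control replicates 1 to 4 and 8.69, 6.81, 12.9 and 15.8 CPM in KO replicates 1 to 4. The lowest KO library was above the highest control library, and the KO libraries, with the higher mean, spread more widely in CPM. The means were 3.75 ± 1.28 and 11.05 ± 4.06 CPM (SD, n = 4 each), a log2 fold change of 1.54 (SE 0.30, 95% interval 0.89 to 2.18) with an adjusted p of 0.00092 by edgeR's quasi-likelihood test. The exact permutation test over the 70 assignments of the libraries, two-sided on log2(CPM + 0.1), gave 0.0286, the smallest p it can give. Zfp36l2 passed the test in all 18 alternative analyses, with log2 fold changes of 1.34 to 1.84. Among the 5031 genes with a mean of 1 to under 10 CPM, where Zfp36l2 lies, 35.7% were DEGs higher in KO and the median log2 fold change was 0.47.

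Zfp36l1, which acts on ARE mRNAs as Zfp36l2 does, was near the detection floor in control oocytes and rose in KO oocytes. It lies on chr12:80107754-80113013 on the minus strand. Its libraries held 7, 0, 2 and 4 counts in control and 10, 38, 14 and 22 counts in KO, or 0.187, 0, 0.136 and 0.291 CPM and 1.09, 2.09, 0.863 and 0.749 CPM. Every KO library was above every control library. The control libraries at 0.187 and 0.291 CPM were the only control libraries that exceeded 3 counts. Its log2 fold change was 2.94 (SE 0.64, 95% interval 1.56 to 4.32), with an adjusted p of 0.0018 by edgeR's quasi-likelihood test and 0.0286 by the exact permutation test. With so few counts the fold depends on how the counts are pooled: 84 counts in KO against 13 in control, set against the summed library sizes, made a ratio of 7.62 with an exact counting interval of 4.22 to 14.9. It passed the test in all 17 alternatives in which it was tested (2.54 to 3.35) and was removed when 1 CPM or more was required in 4 libraries. Among genes with a mean under 1 CPM, 35.5% were DEGs higher in KO, with a median log2 fold change of 1.05.

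Zfp36 (tristetraprolin, the founding member of the family, chr7:28376784-28380253, minus strand) was at 1.82, 2.22, 1.84 and 1.31 CPM in control and 2.82, 3.68, 2.47 and 1.94 CPM in KO. KO replicate 4 lay within the control range and the other 3 KO libraries lay above it. This made a log2 fold change of 0.58 (SE 0.27, 95% interval -0.01 to 1.17), with an adjusted p of 0.087 by edgeR's quasi-likelihood test, so it did not pass the threshold. It passed in 5 of 18 alternatives, such as library size alone (0.87, adjusted p = 0.018 by edgeR) and the fit without KO replicate 4 (0.75, adjusted p = 0.036). Zfp36l3 had 0 counts in all 4 control libraries and 0, 1, 0 and 1 counts in KO (chrX:53774048-53776394, minus strand). Both groups were at or under the floor, so no fold is given. Summed over the 4 genes, the TTP family made 4.30 to 7.62 CPM in control and 12.6 to 18.5 CPM in KO libraries, of which Zfp36l2 was the larger part in both groups.

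The ELAV family was far more abundant, and neither gene passed the test. Elavl2 (HuB, chr4:91250763-91400785, minus strand) was at 403.9, 313.7, 346.8 and 337.3 CPM in control and 307.9, 318.3, 254.0 and 337.3 CPM in KO. Control replicate 1 was the highest and KO replicate 3 the lowest, and the other libraries overlapped. Between the group means the log2 fold change was -0.20 (SE 0.12, 95% interval -0.46 to 0.05, adjusted p = 0.16 by edgeR's quasi-likelihood test). Elavl1 (HuR, chr8:4285382-4325413, minus strand) was at 41.8, 33.2, 28.5 and 29.8 CPM in control and 29.2, 30.2, 27.8 and 37.1 CPM in KO. The groups overlapped, with control replicate 1 above the other control libraries and KO replicate 4 above the other KO libraries. The log2 fold change was -0.10 (SE 0.15, 95% interval -0.44 to 0.23, adjusted p = 0.59 by edgeR's quasi-likelihood test), so the data bound the change of Elavl1 but do not show that it stayed the same. The sign of both genes turned with the scaling: with library size alone, Elavl1 was at 0.19 and Elavl2 at 0.081.

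Among the other ARE binders, Tial1 fell. Tial1 (chr7:128439777-128461717, minus strand) was at 29.2, 19.6, 18.9 and 20.5 CPM in control and 15.3, 16.5, 14.1 and 18.5 CPM in KO. All KO libraries lay below all control libraries, with KO replicate 4 just under control replicate 3, and control replicate 1 stood apart from the other controls. The log2 fold change was -0.46 (SE 0.17, 95% interval -0.83 to -0.09), with an adjusted p of 0.037 by edgeR's quasi-likelihood test and 0.0286 by the exact permutation test. In the interval of 10 to under 100 CPM, in which Tial1 lies, 36.8% of genes were lower at the same threshold and the median log2 fold change was -0.17. The call was lost in 10 of 18 alternatives while the direction was kept: without control replicate 1 the log2 fold change was -0.29 (adjusted p = 0.097 by edgeR), and it was -0.17 (adjusted p = 0.38) with library size alone. It was also lost without control replicate 4, KO replicate 1, KO replicate 2 or KO replicate 3, with adjusted p-values of 0.051 to 0.083 by edgeR.

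Tia1, the paralog of Tial1 (chr6:86404219-86433405, plus strand), was at 1.31, 1.28, 2.38 and 0.874 CPM in control and 2.93, 1.81, 2.65 and 1.53 CPM in KO. The groups overlapped through control replicate 3, which was higher than KO replicates 2 and 4. The log2 fold change was 0.59 (SE 0.34, 95% interval -0.16 to 1.33, adjusted p = 0.16 by edgeR's quasi-likelihood test), and without control replicate 3 it was 0.89 (adjusted p = 0.044).

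Hnrnpd (chr5:99955935-99978938, minus strand) was at 67.9, 48.8, 37.0 and 49.7 CPM in control and 38.01, 38.2, 42.6 and 43.1 CPM in KO. The 4 KO libraries were close together and lay inside the wider control range. The log2 fold change was -0.33 (SE 0.17, 95% interval -0.69 to 0.03, adjusted p = 0.11 by edgeR's quasi-likelihood test), and it passed only without control replicate 3 (-0.46, adjusted p = 0.027). Without that library, 5 members passed the threshold with no fold limit in place of 3. Khsrp (chr17:57021051-57031522, minus strand) was at 68.4, 87.6, 67.8 and 86.3 CPM in control and 68.0, 53.5, 78.5 and 57.5 CPM in KO. KO replicates 1 and 3 lay within the control range and KO replicates 2 and 4 lay below it. Its log2 fold change was -0.27 (SE 0.15, 95% interval -0.59 to 0.05, adjusted p = 0.14 by edgeR's quasi-likelihood test), and it was at 0.013 with library size alone.

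**Figure D2:**
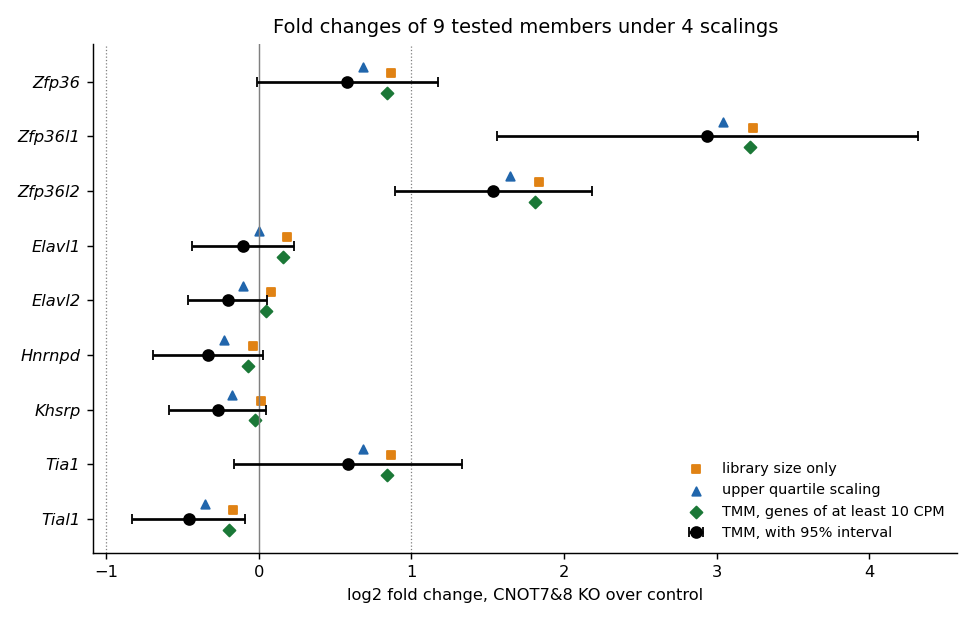
Log2 fold change of KO over control (x axis) for the 9 members tested (y axis); black points are the TMM-scaled fit with its 95% interval, coloured points the same fit with library size alone, upper quartile scaling, or TMM on genes with 10 CPM or more, and dotted lines mark 2-fold. Zfp36l1 and Zfp36l2 lie above 1 under each scaling, whereas Elavl1, Elavl2 and Khsrp cross 0 with library size alone.

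TMM factors were 0.849 to 0.943 in control and 1.07 to 1.14 in KO libraries, so the scaling bears on small changes. Relative to TMM, library size alone raised the median log2 fold change of all genes by 0.29, and TMM on genes with 10 CPM or more raised it by 0.25. The changes of Elavl1, Elavl2, Hnrnpd, Khsrp and Tial1, between -0.46 and -0.10, are of the same order as this shift. Those of Zfp36l1 and Zfp36l2 exceed it.

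Counts of reads that could come from more than a single gene add an uncertainty of their own, since the sources used here do not give the strand setting of the counting. Annotated genes on the opposite strand overlap Zfp36 (Gm44710), Zfp36l1 (Gm26669), Zfp36l2 (AC132455.1), Elavl1 (Ccl25), Elavl2 (Gm12653), Hnrnpd (Gm17092) and Khsrp (Gm17949), and without strand, reads of the partners cannot be told apart. On the same strand, Gm44790 overlaps Tia1 (353 bases at 100% identity) and Mir6402 overlaps Elavl2, and a strand setting would not separate these. The longest shared stretch of transcripts was that of Zfp36l1 with Gm26669, 1491 bases, and Gm26669 had 0 counts in the table. A processed pseudogene of Khsrp, Gm8602, matched it over 608 bases at 96.4% identity and had 101 counts in all libraries together. Hnrnpd, Tia1 and Zfp36 shared shorter stretches with several other genes. The partner with the most counts was Paip2 for Tia1 (135 bases, 56956 counts) and Wdr1 for Zfp36 (128 bases, 17921 counts). Tia1 had 122 counts in control and 148 in KO, and Zfp36 had 158 and 190. Whether such stretches affected these counts was not tested.

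Set per kilobase of exon, so that genes of different length can be compared, the levels of the members differed widely, down to barely detected. In control oocytes the order was Elavl2 (42.1 ± 4.60 CPM per kilobase, SD, n = 4), Khsrp (17.95 ± 2.52), Hnrnpd (6.91 ± 1.74), Elavl1 (3.22 ± 0.577), Tial1 (3.20 ± 0.697), Zfp36l2 (1.06 ± 0.364), Zfp36 (0.518 ± 0.108), Tia1 (0.0928 ± 0.0409), Zfp36l1 (0.0514 ± 0.0405) and Zfp36l3 (0). Neighbours in this order overlapped over the 4 libraries for Elavl1 with Tial1, Tia1 with Zfp36l1, and Zfp36l1 with Zfp36l3. Elavl2 was the highest of the 10 by level per length, and the TTP family lay in the lower part of the order.

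In KO oocytes Zfp36l2 stood at 3.13 ± 1.151 CPM per kilobase, in the order just before Elavl1 (2.997 ± 0.402), from which it did not differ beyond the spread of the libraries, and Tial1 (2.33 ± 0.271). Zfp36l1 (0.400 ± 0.204) stood before Tia1 (0.142 ± 0.0423). The places of Zfp36l2 and Zfp36l1 depend on the length used. With the length of the longest transcript in place of all exons, Elavl1 was at 5.41 and Tial1 at 3.61 CPM per kilobase in KO, both above Zfp36l2, and Tia1 was at 0.499, above Zfp36l1.

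**Figure D3:**
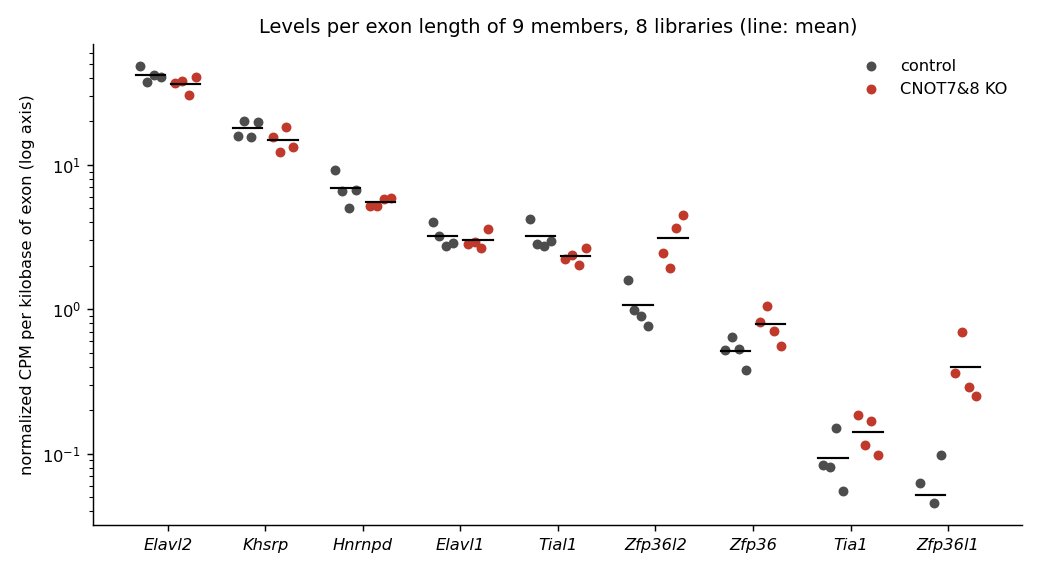
Normalized CPM per kilobase of exon (log axis) of 9 members in 4 control and 4 CNOT7&8 KO libraries, with lines at the group means. Zfp36l3 is left out and the control library without a count of Zfp36l1 has no point on the log axis. Elavl2 is highest in both groups and Zfp36l2 moves from about 1.06 to 3.13.

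Ratios within a library do not depend on how libraries are scaled. The groups overlapped for each of the 3 ratios between related members. None passed an exact permutation test (two-sided, 70 assignments, Benjamini-Hochberg over 3 ratios). The smallest p this test can give is 0.0286, so a single ratio with its groups fully apart could not have passed the threshold after adjustment. The test therefore does not show that the ratios stayed the same. The log2 ratio of Zfp36l1 to Zfp36l2 counts, with 0.5 added to each, was -4.82 ± 1.72 in control and -3.21 ± 1.17 in KO (difference 1.61, p = 0.17, adjusted p = 0.26, exact permutation test). It rests on control replicate 2, which had no Zfp36l1 count: without it the difference was 0.83. The ratio of Tia1 to Tial1 was -3.96 ± 0.713 and -2.87 ± 0.597 (difference 1.09, p = 0.086, adjusted p = 0.26, exact permutation test). The ratio of Elavl2 to Elavl1 was 3.40 ± 0.176 and 3.29 ± 0.121 (difference -0.11, p = 0.34, adjusted p = 0.34, exact permutation test).

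The balance of a TTP family member against Elavl1, a decay-promoting and a stabilizing binder of the same class of sites, was set side by side after the values had been seen, so it is given without a test. For each 100 counts of Elavl1 there were 13.4, 10.55, 11.2 and 9.05 counts of Zfp36l2 in control and 29.7, 22.6, 46.4 and 42.6 in KO libraries. The groups did not overlap.

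**Figure D4:**
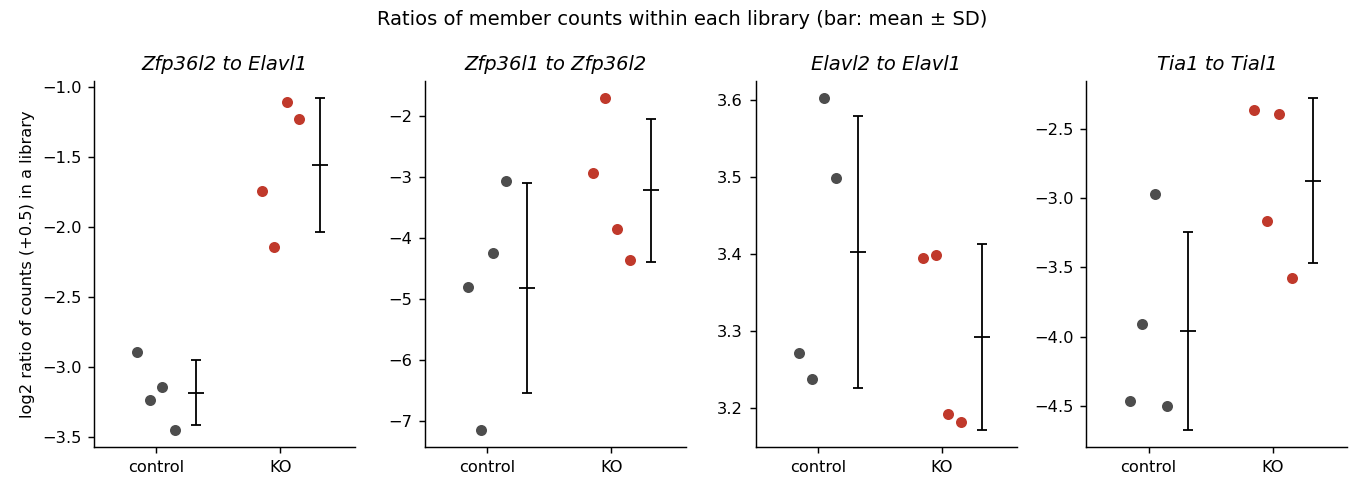
Log2 ratio of the counts of 2 members in the same library (y axis, a scale of its own in each panel, 0.5 added to each count) in 4 control and 4 CNOT7&8 KO libraries; bars are mean ± SD. The groups are apart for Zfp36l2 to Elavl1, a panel added after its values were seen, and overlap for the other 3 ratios.

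Other proteins that bind AREs, GU-rich or related elements were called about as often as all genes. Of 21 such genes, 20 were tested, of which 4 were DEGs higher in KO (23.8% of all genes were) and 0 lower (6.56%). Without the fold threshold 7 were higher (31.2% of all genes) and 5 lower (24.1%), and the median log2 fold change was 0.10, against 0.12 for all genes. Rc3h2 (Roquin-2, which also recruits CCR4–NOT to its targets) was at 7.82 ± 2.68 CPM in control and 81.8 ± 22.8 in KO, a log2 fold change of 3.37. Igf2bp1 rose from 0.4996 ± 0.107 to 5.34 ± 1.33 CPM (3.36), Zc3h12b from 2.67 ± 0.243 to 12.0 ± 2.44 (2.16) and Zc3h12d from 2.69 ± 0.444 to 6.91 ± 1.31 (1.36). The largest adjusted p of these 4 genes by edgeR's quasi-likelihood test was 0.00019, for Zc3h12d. Among the 5 lower genes were Ncl (nucleolin; 626.2 ± 86.8 and 385.1 ± 12.8 CPM, -0.70) and Igf2bp2 (330.0 ± 40.3 and 204.7 ± 7.89 CPM, -0.69).

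TTP family proteins are held inactive when MK2, a kinase downstream of p38, phosphorylates them and 14-3-3 proteins bind. Of 16 genes, which were genes of this route and the kinase Akt1, all were tested and 0 were DEGs in either direction. Without the fold threshold 2 were higher, against 31.2% of all genes, and 5 were lower, against 24.1%, with a median log2 fold change of -0.26 against 0.12. The 2 higher genes were the kinases Mapkapk2 (MK2; 4.60 ± 0.685 and 8.16 ± 1.12 CPM, log2 fold change 0.81, adjusted p = 0.0030 by edgeR) and Mapkapk3 (MK3; 2.70 ± 0.195 and 4.52 ± 0.823 CPM, 0.74, adjusted p = 0.0090). Among the 5 lower genes were Akt1 (-0.83) and the 14-3-3 gene Ywhaz (-0.79, from 442.4 ± 44.3 to 256.4 ± 23.9 CPM). Apart from Akt1 the lower genes were 14-3-3 genes with a mean of 100 CPM or more. Of all genes at that level 55.2% were lower at this threshold, with a median log2 fold change of -0.37. Of genes from 10 to under 100 CPM, where Akt1 lies, 36.8% were lower. Of genes from 1 to under 10 CPM, where Mapkapk2 and Mapkapk3 lie, 44.1% were higher. With library size alone, 2 of the 16 genes were DEGs higher in KO, and without control replicate 1, 1 was a DEG lower in KO.

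Many mRNAs that are textbook examples of ARE control were higher in KO oocytes. Of 31 such genes 22 were tested, of which 14 were DEGs higher in KO, against 23.8% of all genes, and 0 were lower, against 6.56%. The median log2 fold change was 2.11, against 0.12 for all genes. Lif had no control count, and with its fold set to no change the median was 1.90. The 9 genes not tested included 3 without a count in any library. Most of the tested genes had low levels, and of all genes with a mean under 1 CPM and from 1 to under 10 CPM, 35.5% and 35.7% were DEGs higher in KO.

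Ccl2, a chemokine, was at 1.98, 2.57, 2.99 and 5.17 CPM in control and 47.7, 57.0, 55.0 and 45.6 CPM in KO (log2 fold change 4.06). Ptgs2 (COX-2), which makes prostaglandins, was at 3.10, 1.78, 3.54 and 3.35 CPM in control and 37.4, 38.7, 28.9 and 41.8 CPM in KO (3.65). Ccnd1 (cyclin D1) was at 1.65 ± 0.289 and 13.4 ± 2.33 CPM (3.02), and the cytokine Il3 at 0.104 ± 0.0699 and 4.02 ± 0.413 CPM (5.06). For each of these 4 genes every KO library was above every control library, with adjusted p-values of 1.8e-07 to 1.1e-06 by edgeR's quasi-likelihood test. The site of Ptgs2 that matches the nonamers of the TTP family genes is shown beside them.
Ptgs2 nonamer, chr1:150105790-150105818, plus strand: ctgaccatatTTATTTATTtatgtgaaga
Of the 31 genes, 13 held a nonamer, 24 a heptamer and 30 a pentamer, with the genes not tested included. Among the tested genes with a nonamer, Bcl2, Lif, Plk3 and Ptgs2 were DEGs higher in KO. Dusp1, Fos, Pim1 and Vegfa, which also held a nonamer, did not pass the test. Their log2 fold changes were -0.01 for Dusp1, -0.06 for Pim1, 0.68 for Fos and 1.24 for Vegfa. Ccl2 and Il3 held neither a nonamer nor a heptamer in the longest annotated 3′UTR.

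Across the 15132 tested genes with a 3′UTR of at least 50 bases, the number of nonamers in the 3′UTR went with small differences in fold change. The median log2 fold change was 0.02 for the 13934 genes with no nonamer, 0.13 for the 935 genes with 1 and 0.04 for the 263 with 2 or more, and 22.2%, 23.7% and 24.0% of them were DEGs higher in KO. Genes with a nonamer had a longer 3′UTR (median 2275 bases with 1 nonamer, 1033 with none) and differed in level. Within each of 4 intervals of mean CPM, a comparison added after the data were seen, genes with a nonamer had the higher median, by 0.11 to 0.23 on the log2 scale. Within intervals of 3′UTR length the sign varied: the difference was -0.22 under 500 bases, -0.09 from 500 to under 1000, -0.05 from 1000 to under 2000 and 0.12 at 2000 bases or more. These are descriptions over genes, which are not independent replicates.

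**Figure D5:**
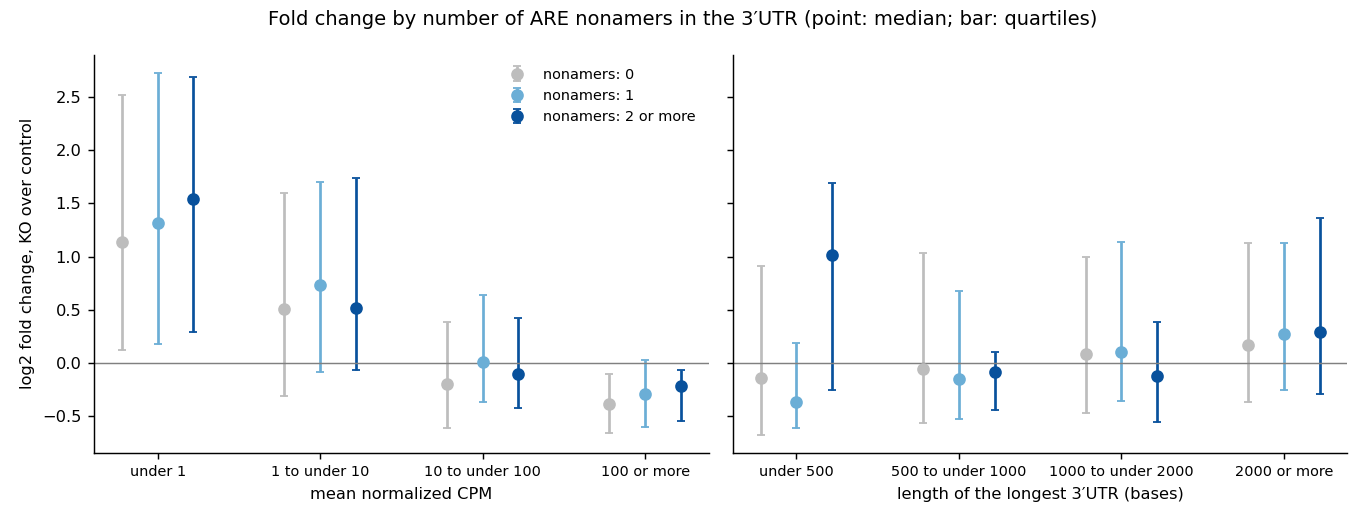
Log2 fold change of KO over control (y axis; points are medians, bars quartiles) of tested genes with 0, 1, or 2 or more nonamers in the 3′UTR, within intervals of mean CPM (left) and of 3′UTR length (right). The point for 2 or more nonamers under 500 bases stands for 6 genes. The medians differ more between the intervals of CPM, from above 1 to below -0.2, than between nonamer classes.

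Markers of granulosa and cumulus cells, the somatic cells that surround the oocyte and keep both genes, also moved with the group. Of 12 markers 11 were tested, of which 6 were DEGs higher in KO, against 23.8% of all genes, and 0 lower, against 6.56%. The summed level of the markers was 132.7 to 187.1 CPM in control and 227.4 to 310.8 CPM in KO libraries. Without the fold threshold Cyp19a1, the aromatase of granulosa cells, was lower (58.5 ± 8.01 and 31.3 ± 6.02 CPM). In KO replicate 4 Zfp36l2 was at its highest. Zfp36l1 (0.749 CPM) and Zfp36 (1.94 CPM) were instead at their lowest of the KO libraries there. The 6 DEGs among the markers were split in that library. Inha (4.77 CPM), Inhba (1.63 CPM) and Gja1 (10.8 CPM) were not above the highest control library, whereas Kitl (40.1 CPM, control maximum 20.7), Nr5a2 (131.8 CPM, control maximum 69.3) and Fshr (3.34 CPM, control maximum 1.58) were. The summed marker level of that library was 227.4 CPM, above every control library. Nr5a2 alone made the larger part of that sum, and without Nr5a2 the sum was not above every control library. Zfp36l1, Zfp36l2 and several of the ARE mRNAs are expressed in granulosa cells, and the part of such cells in these results was not tested. Of 10 markers of blood, vessel and stroma, 6 were tested, with a summed level of 88.8 to 110.7 CPM in control and 75.4 to 90.1 CPM in KO. Most of that sum was Pecam1 (96.2 ± 8.91 and 82.2 ± 6.26 CPM). Higher in KO was 1 DEG, Ptprc, against 23.8% of all genes. Lower was 1, Col3a1, against 6.56%, and both had a mean under 1 CPM. Both haemoglobin genes (Hbb-bs and Hba-a1) had no count.

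The genes whose levels followed Zfp36l2 most closely over the 8 libraries, among 8728 genes that averaged 10 CPM or more, were Rapgef2 (Pearson r = 0.992), Cul4a (0.990) and Rasal2 (0.990). These correlations of log2 CPM are descriptions: the libraries fall into 2 groups, so a gene that differs between the groups has a high r, and all points share library and scaling. Within the groups Rasal2 was at 33.7, 24.0, 23.3 and 19.96 CPM in control and 51.6, 46.4, 64.6 and 69.1 CPM in KO, with the same order of libraries as Zfp36l2 in both groups.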

How the data were processed

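Fully grown GV oocytes were sequenced in 8 libraries, 4 of CNOT7&8 KO and 4 of Zp3-Cre control, grouped by the deposited labels. The authors depleted ribosomal RNA, mapped paired reads to GRCm38 (STAR 2.6.1d and edgeR 3.11 are listed in the submitters' processing notes) and deposited raw read counts per gene, neither normalized nor filtered. The counting tool, annotation and strand setting are not given in the sources used here, and the labels and the methods name different library kits.

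Counts were analysed in R 4.3.3 with edgeR 4.0.16 (filter of at least 0.2 CPM in 2 or more libraries, TMM, quasi-likelihood test, Benjamini-Hochberg over 19241 genes). This test replaced the exact test of the study, which was an alternative with DESeq2 1.42.0, other scalings and filters, a replicate block and leaving out each library in turn. All 10 members and 98.2% of gene identifiers were found in GENCODE vM21 (GRCm38), which gave coordinates, exon lengths and 3′UTR sequences. The fit and the permutation test were tested on simulated data. Figures used Python 3.11.15 and matplotlib 3.10.9.

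The members and gene lists were chosen with earlier results of these data known. Named genes were all members, up to 4 genes of each list with the largest fold change among those that passed the 0.05 threshold and averaged 1 CPM or more, and the 3 genes most correlated with Zfp36l2. Lif, Ncl, Igf2bp2, Cyp19a1, Mos, Pecam1, Ptprc and Col3a1 were picked once their values had been seen. So were the markers named beside KO replicate 4 and the textbook genes named for their nonamers. Library totals of 8639444 to 44092144 set the precision of low values.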

Additional observations from a re-analysis of the deposited data

Results flagged for a closer look

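Tial1 in control replicate 1 was at 29.2 CPM, far from the other 3 control libraries (18.9 to 20.5 CPM) by Dixon's test. Of 24 groups of 4 libraries examined (9 members and 3 ratios in both groups) this was the only group with a library apart, and chance gives about 1.2. The call for Tial1 was lost without this library.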

How the results depend on the processing

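Zfp36l1 and Zfp36l2 were DEGs in every alternative in which they were tested; requiring 1 CPM or more in 4 libraries removed Zfp36l1 and left 1 DEG among the members. The number of members past the threshold without a fold limit was 2 to 5 when single libraries were left out, 5 without control replicate 3. The direction reversed for Elavl1 with library size alone (0.19), upper quartile scaling (0.0017), TMM on genes with 10 CPM or more (0.16) and without control replicate 1 (range over single libraries left out -0.18 to 0.028), for Elavl2 with library size alone (0.081) and TMM on genes with 10 CPM or more (0.050), and for Khsrp with library size alone (0.013). Leaving out single libraries gave 0.83 to 2.19 for the difference in the log2 ratio of Zfp36l1 to Zfp36l2, -0.17 to -0.04 for Elavl2 to Elavl1 and 0.91 to 1.42 for Tia1 to Tial1. Adding 2 counts in place of 0.5 gave 0.91 for Zfp36l1 to Zfp36l2, an alternative chosen after seeing the data. The replicate numbers did not pair the libraries (correlations of same-numbered deviations -0.12 to 0.11). The deviations of control replicate 1 and KO replicate 4 had a higher correlation, 0.37. With both of these libraries left out, 2 members were DEGs and 3 passed without the fold limit. With the replicate number as a block, 2 members were DEGs, and 2 passed without the fold limit because Tial1 (-0.44, adjusted p = 0.068 by edgeR) did not. Over all genes, DEGs higher in KO fell from 4582 to 2882 under the stricter filter, and DEGs lower in KO from 1263 to 587 with library size alone and 628 with TMM on genes with 10 CPM or more. The p38 route gave 1 DEG higher in KO with TMM on genes with 10 CPM or more and 1 without control replicate 1 and KO replicate 4 together, against 0. Depth limits Zfp36l1, Zfp36l3 and the low cytokine mRNAs, for which 3 counts made 0.0802 to 0.326 CPM.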
